A study of Homo sapiens with 8 samples.

Results

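The 30 genes described here belong to the glycolytic and hypoxia programme: 14 glycolytic enzymes, 2 glucose transporters, 3 regulators of glycolysis and 11 other genes known to be induced by low oxygen, among them CA12. These genes and the lists of other genes used below were chosen with earlier results of these data known. They were found by symbol after the Ensembl identifiers had been matched to GENCODE release 29. All 30 were among the 58302 genes of the expected-count table. All 30 also passed the filter on low counts, which left 18973 genes for testing. The libraries were RNA sequencing libraries of xenograft tumours of T24, a long-established cell line from a human bladder carcinoma. The tested group was 4 libraries from T24 xenografts with enforced expression of DDR1, a receptor tyrosine kinase activated by collagen, and it was compared with 4 libraries from control T24 xenografts. The vector, its promoter, what the control cells carried, the mouse strain and the age of the mice were not given. The labels do not say that each library came from a separate animal or tumour, and p-values here reflect library-to-library spread alone, part of which may be technical. DDR1 replicates 2, 3 and 4 share a title prefix, as do control replicates 3 and 4. Replicate numbers only follow the order of the libraries, and equal numbers in the groups do not mark a pair. All 4 DDR1 titles name lane 8, 2 control titles name lane 7 and the other two name none, so lane and group cannot be told apart.

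When oxygen is short, the prolyl hydroxylases stop marking the hypoxia-inducible factors HIF1A and EPAS1 for destruction by VHL. The stabilised factor pairs with ARNT and binds DNA at the short core ACGTG or GCGTG, which stands in the promoters of many genes. Its targets include nearly every step of glycolysis from glucose uptake to lactate, and genes for acid export, vessel growth, mitochondrial turnover and collagen hydroxylation. In many tumours, bladder carcinoma included, these genes mark regions far from vessels.

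The HIF core motif can be seen directly in 4 member promoters. They are shown because CA12 had the largest difference of any member, CA9 is its paralog and the usual marker of hypoxic tumour regions, PGK1 is an enzyme with a well-studied response element, and BNIP3 had more motif matches than the other 3. Each sequence is the 250 bases before the start of the gene in RefSeq, build GRCh38.p14, written 5′ to 3′ on the gene's own strand. Capitals mark ACGTG or GCGTG, or their reverse complements CACGT and CACGC, and CACGTG holds a pair of overlapping matches.

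CA9, chr9:35673678-35673927, plus strand: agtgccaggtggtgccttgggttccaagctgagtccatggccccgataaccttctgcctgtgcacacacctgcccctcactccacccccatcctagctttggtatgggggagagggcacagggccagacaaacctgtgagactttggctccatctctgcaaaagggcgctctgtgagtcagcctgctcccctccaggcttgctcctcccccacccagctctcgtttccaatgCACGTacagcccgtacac

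CA12, chr15:63381847-63382096, minus strand: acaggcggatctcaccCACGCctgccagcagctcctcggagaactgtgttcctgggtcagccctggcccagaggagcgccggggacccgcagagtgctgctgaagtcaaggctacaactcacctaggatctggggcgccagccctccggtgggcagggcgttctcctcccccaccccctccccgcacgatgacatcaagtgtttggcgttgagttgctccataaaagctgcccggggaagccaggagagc

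BNIP3, chr10:131981924-131982173, minus strand: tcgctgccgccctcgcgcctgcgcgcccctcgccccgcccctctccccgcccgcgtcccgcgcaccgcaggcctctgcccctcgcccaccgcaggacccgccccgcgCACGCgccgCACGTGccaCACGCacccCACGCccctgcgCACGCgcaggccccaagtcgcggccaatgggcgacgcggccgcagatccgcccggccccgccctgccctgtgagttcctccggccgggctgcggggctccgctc

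PGK1, chrX:78103998-78104247, plus strand: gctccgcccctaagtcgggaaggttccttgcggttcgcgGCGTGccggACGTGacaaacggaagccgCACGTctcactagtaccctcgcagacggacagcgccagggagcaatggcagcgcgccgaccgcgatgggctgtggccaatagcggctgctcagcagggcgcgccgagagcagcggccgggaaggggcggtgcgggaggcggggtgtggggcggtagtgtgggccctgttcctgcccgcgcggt

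CA9 had 1 match, CACGT, in this stretch, CA12 had 1, CACGC, far from its start, PGK1 had 3 close together and BNIP3 had 6. Past the start, in bases not printed, CA12 also had a CACGC beginning at base 40 and PGK1 a CACGT beginning at base 29. RefSeq start-site windows were at hand for 26 of the 30 genes, some with several starts, which gave 42 windows running from 250 bases before to 50 bases after the start. A match on either strand was found in 30 of these 42 windows (71.4%), against 17012 of all 35116 windows (48.4%). For ACGTG and CACGT alone the shares were 45.2% of member windows and 21.4% of all windows. Windows of one gene are not independent, with 7 from HK1 alone, and the member windows were not matched to the others for base composition. A match is only a string of letters and does not show binding. SLC2A3, VEGFA, BNIP3L and NDRG1 had no window in the table.

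The targeted gene checked the labels only in part. DDR1 (chromosome 6, 30876421 to 30900156, plus strand, GRCh38) stood at 159, 343, 427 and 810 CPM (counts per 1000000 counts of the TMM-scaled library) in DDR1 replicates 1 to 4, against 138, 110, 210 and 149 CPM in control replicates 1 to 4. The library labelled DDR1 replicate 1 therefore lay inside the control range. The log2 fold change, DDR1 over control, was 1.52 ± 0.43 (SE), with an unadjusted p of 0.00612 and an adjusted p of 0.9998 by edgeR's quasi-likelihood test with Benjamini-Hochberg adjustment over all genes. An exact two-sided permutation test on log2 CPM gave p = 0.0571, where 4 against 4 libraries allow no p below 0.0286. Library totals were 20789503 to 32271031 expected counts in DDR1 libraries and 13716286 to 22736674 in control libraries, so counting error was small for all but the lowest genes.

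After Benjamini-Hochberg adjustment of edgeR's quasi-likelihood p-values, none of the 18973 genes (0%) was under 0.05, and so no member was, with an adjusted p of 0.9998 for each in that edgeR fit. DESeq2 called 16 genes (0.0843%), none of them a member, and its lowest adjusted p among members was 0.238, for CA12. An unadjusted p under 0.05 was reached by 791 genes (4.17%), of which 366 (1.93%) were higher and 425 (2.24%) lower in DDR1 libraries. Among the 30 members, 3 reached it, CA12, HK1 and BNIP3L, all with the higher mean in DDR1 libraries. With the libraries of a shared title prefix summed, none of these 3 did, since edgeR's unadjusted p was 0.0541 for CA12, 0.157 for HK1 and 0.168 for BNIP3L. That fit had fewer units in each group than the main fit, and so less power. CA12 also missed 0.05 with limma-voom, at an unadjusted p of 0.0705, and its exact two-sided permutation p on log2 CPM was 0.114. Log2 fold changes were above 0 for 24 of the 30, with a median of 0.19, while they were above 0 for 49.5% of all tested genes, whose median was -0.003. Among the 2213 tested genes at or above the members' median level, 56.8% were above 0. The members were chosen with earlier results of these data known, so these shares do not set a blind list beside all genes. None of these differences is a called change, and the values below describe levels. In bulk tumour RNA, fewer cells of a type and less RNA per cell cannot be told apart.

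**Figure D1:**
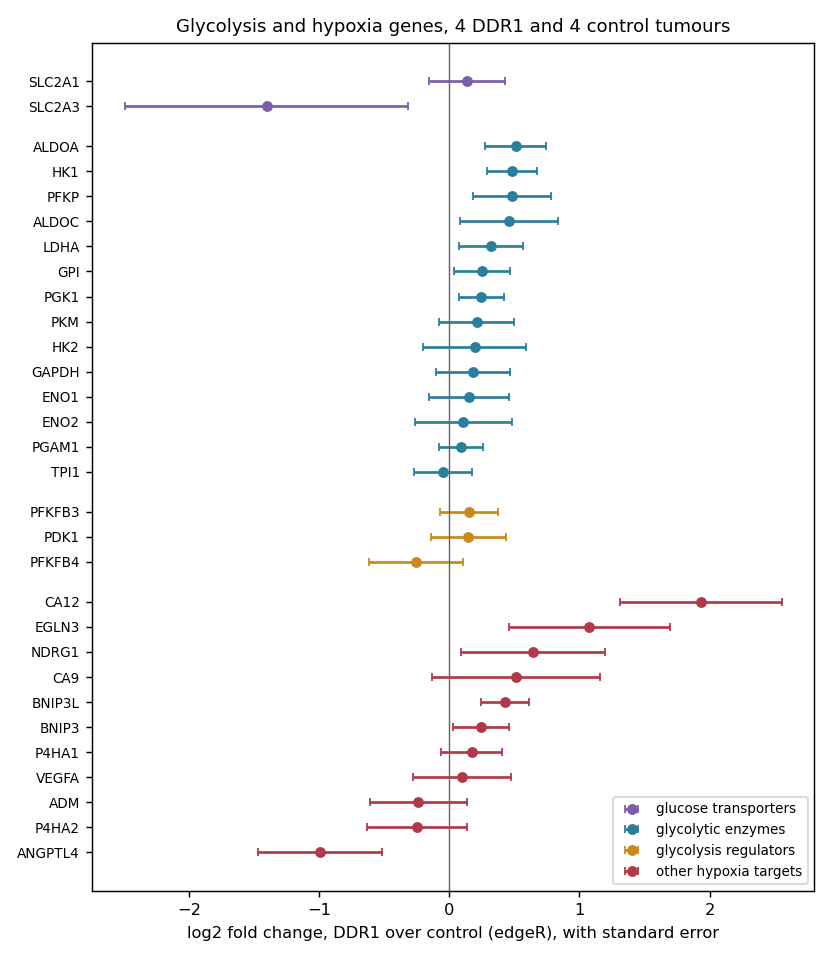
Log2 fold change, DDR1 over control, with its standard error for each of the 30 genes (4 libraries a group), grouped by role. Most points lie a little to the right of 0, CA12 stands farthest right at 1.93, SLC2A3 farthest left at -1.40, and no gene passed the adjusted test.

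Of the 11 hypoxia targets outside glycolysis, 8 had the higher mean in DDR1 libraries by the fitted fold change and 3 the lower, with a median log2 fold change of 0.24. CA12, a membrane-bound carbonic anhydrase that turns carbon dioxide and water into bicarbonate and protons outside the cell, differed most. CA12 (chromosome 15, 63321378 to 63382161, minus strand) stood at 8.88, 38.1, 14.5 and 81.8 CPM in DDR1 replicates 1 to 4, against 6.76, 12.9, 10.5 and 7.24 CPM in control replicates 1 to 4. DDR1 replicates 2, 3 and 4 lay above every control, but the library labelled DDR1 replicate 1 lay among the controls, so the groups overlapped. The highest DDR1 library had 9.21 times the level of the lowest, against 1.91 times among controls. The mean was 35.8 ± 33.2 CPM in DDR1 libraries and 9.34 ± 2.89 CPM in control libraries (SD, n = 4 each). The log2 fold change was 1.93 ± 0.62 (SE), with an unadjusted p of 0.0115 and an adjusted p of 0.9998 by edgeR's quasi-likelihood test with Benjamini-Hochberg adjustment. It was 1.14 without DDR1 replicate 4, the highest library, and 2.26 without the library labelled DDR1 replicate 1.

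CA9, the paralog of CA12 with the same extracellular reaction, had the lower CPM of the pair in every library. CA9 stood at 2.99, 0.728, 1.21 and 1.20 CPM in DDR1 replicates 1 to 4, against 2.6, 0.543, 0.775 and 0.381 CPM in control replicates 1 to 4. CPM does not allow for length, and CA9 has 1670 exon bases against 7313 for CA12. Averaged over the 8 libraries, CA9 had 0.781 and CA12 3.09 CPM per kilobase. In replicate 1 of each group, however, CA9 was above CA12 per kilobase. The groups overlapped, and in both the first replicate was the highest, whereas for CA12 the first replicate was the lowest in both. For CA9 the log2 fold change was 0.51 ± 0.65 (SE), which is within its error. CA9 overlaps ARHGEF39 on the other strand, and since the counting is not stated to use strand, reads of the pair cannot be told apart. Per library, CA12 was 2.96, 50.4, 11.9 and 67.2 times CA9 in DDR1 replicates 1 to 4, against 2.56, 22.6, 13.2 and 17.4 times in control replicates 1 to 4. These are ratios of counts, with 0.5 added to each count, and are not corrected for length. The mean log2 ratio was 4.22 ± 2.08 in DDR1 libraries and 3.42 ± 1.42 in control libraries (SD, n = 4 each). Their difference of 0.79 gave p = 0.571 in an exact two-sided permutation test and 0.914 after Benjamini-Hochberg adjustment over 8 pairs of related members.

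BNIP3L, a mitochondrial receptor for the removal of mitochondria by autophagy, was the only member whose groups did not overlap. It stood at 119, 119, 157 and 124 CPM in DDR1 replicates 1 to 4, against 113, 101, 101 and 69.3 CPM in control replicates 1 to 4. The lowest DDR1 library and the highest control were close to each other. The mean was 129.7 ± 18.3 CPM in DDR1 libraries and 96.2 ± 18.8 CPM in control libraries (SD, n = 4 each). The log2 fold change was 0.43 ± 0.18 (SE), with an unadjusted p of 0.0434 and an adjusted p of 0.9998 by edgeR's quasi-likelihood test with Benjamini-Hochberg adjustment. Groups that did not overlap, with DDR1 higher, were found for 241 of all tested genes (1.27%), and for 456 (2.4%) in either direction, and 1 of 30 members is of that order. BNIP3L overlaps the pseudogene SDAD1P1 on the other strand.

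BNIP3, the close relative of BNIP3L with a like role, stood at 38.9, 31.9, 51.4 and 49.0 CPM in DDR1 replicates 1 to 4, against 48.5, 31.1, 34.1 and 30.7 CPM in control replicates 1 to 4. Its groups overlapped and its log2 fold change was 0.24. BNIP3 has 39 annotated pseudogenes whose counts together came to 50.4% of its own, so reads may have been split between copies. With the pseudogene counts added, its log2 fold change was -0.0038, and the direction is not settled.

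The next 3 genes were chosen for a full account after their values had been seen, because they spread widely between libraries. EGLN3, a prolyl hydroxylase that is itself a HIF target and acts back on the HIF proteins, stood at 40.0, 18.2, 26.3 and 26.5 CPM in DDR1 replicates 1 to 4, against 32.5, 6.93, 10.5 and 2.74 CPM in control replicates 1 to 4. Control replicate 1 alone among the controls reached the DDR1 levels, and the controls spread 11.9-fold against 2.20-fold in DDR1 libraries. Its log2 fold change was 1.07 ± 0.62 (SE; unadjusted p = 0.115 by edgeR). It depended on which controls were kept. By edgeR it was 2.05 (unadjusted p = 0.00172) without control replicate 1, 0.74 (unadjusted p = 0.188) without control replicate 4 and 0.50 (unadjusted p = 0.427) without control replicates 3 and 4. No member passed the adjusted test in any of these fits. EGLN3 overlaps SPTSSA on the same strand.

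NDRG1, a stress-response gene of the cytoplasm strongly induced by low oxygen, stood at 516, 306, 397 and 810 CPM in DDR1 replicates 1 to 4, against 615, 207, 402 and 77.3 CPM in control replicates 1 to 4. It shared with EGLN3 a low control replicate 4 and a high control replicate 1. The spread was 2.64-fold in DDR1 libraries and 7.96-fold in controls, and the log2 fold change of 0.64 ± 0.55 (SE) was close to its error. ANGPTL4, a secreted inhibitor of lipoprotein lipase, had the lower mean in DDR1 libraries, with 23.8, 53.5, 45.1 and 35.7 CPM in DDR1 replicates 1 to 4, against 166, 31.4, 70.3 and 48.5 CPM in control replicates 1 to 4. Its fold change turned on control replicate 1: the log2 value was -0.998 ± 0.48 (SE) over all libraries and -0.32 without that one. ANGPTL4 overlaps RAB11B-AS1 on the other strand.

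The remaining hypoxia targets overlapped broadly between groups. VEGFA, the main growth factor for vessels, stood at 362, 219, 199 and 370 CPM in DDR1 replicates 1 to 4, against 420, 166, 346 and 143 CPM in control replicates 1 to 4 (log2 fold change 0.10). ADM, the vasodilator peptide adrenomedullin, stood at 18.2, 22.0, 25.0 and 23.4 CPM in DDR1 libraries, against 50.5, 14.8, 15.5 and 23.5 CPM in control libraries (-0.24). The levels of ADM were even in DDR1 libraries and were led by control replicate 1 in the other group. P4HA1 and P4HA2, the catalytic subunits of the prolyl 4-hydroxylases that stabilise collagen, had log2 fold changes of 0.17 and -0.25.

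**Figure D2:**
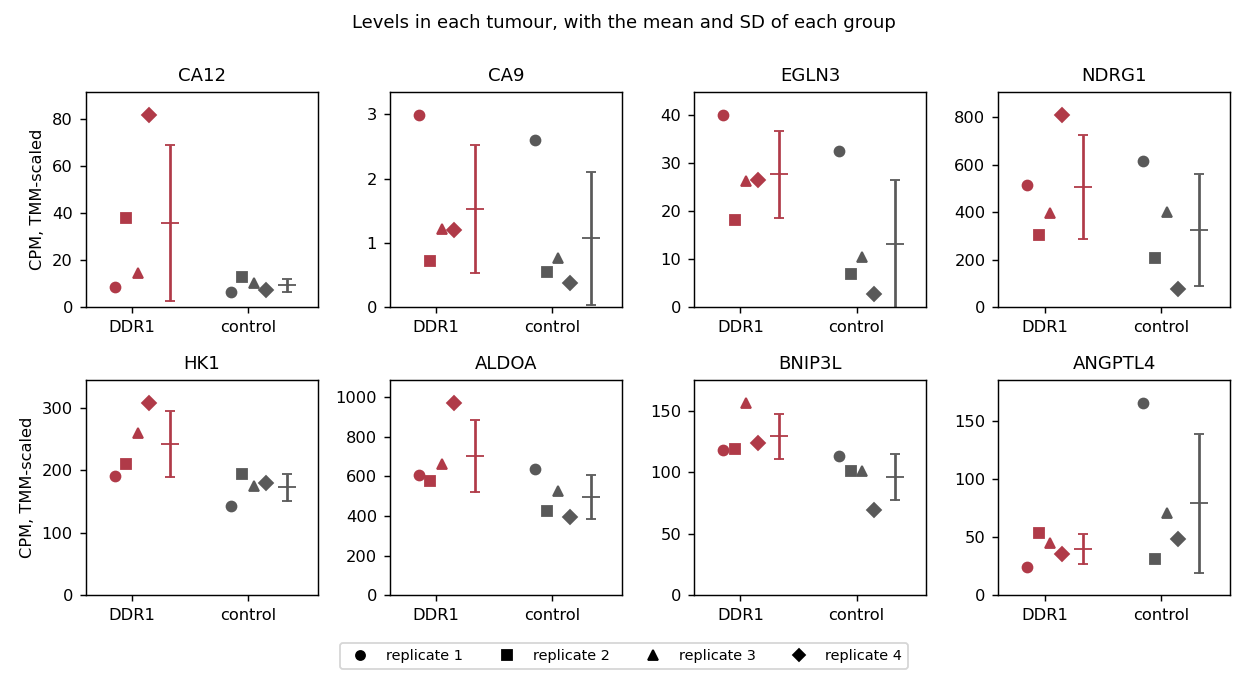
CPM (TMM-scaled, linear axis from 0) in each of the 8 libraries for 8 genes, DDR1 left of control in each panel, with the group mean and SD (n = 4 each, error bars cut at 0). CA12 is spread in DDR1 libraries from 8.88 to 81.8 CPM and tight in controls, while EGLN3, NDRG1 and ANGPTL4 are among those spread more in controls. Control replicate 1 is the highest of the 4 controls in each of these 3 genes, and also in CA9, ALDOA and BNIP3L.

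Among the 14 glycolytic enzymes, 13 had a log2 fold change above 0 and 1 below, within a narrow range of -0.05 to 0.51 and with a median of 0.23. None passed the adjusted test, and 1, HK1, had an unadjusted p under 0.05. HK1, the hexokinase that phosphorylates glucose in most tissues (chromosome 10, 69269984 to 69401884, plus strand), stood at 190, 210, 261 and 309 CPM in DDR1 replicates 1 to 4, against 143, 195, 175 and 180 CPM in control replicates 1 to 4. DDR1 replicates 2, 3 and 4 lay above every control, and the library labelled DDR1 replicate 1 lay between the highest control and the next. The mean was 242 ± 53.2 CPM in DDR1 libraries and 173 ± 21.6 CPM in control libraries (SD, n = 4 each). The log2 fold change was 0.48 ± 0.19 (SE), with an unadjusted p of 0.0306 and an adjusted p of 0.9998 by edgeR's quasi-likelihood test with Benjamini-Hochberg adjustment. Within the DDR1 group HK1 ranked the 4 libraries as DDR1 itself did, which held for 1 of 30 members (3.33%) and for 5.67% of all tested genes.

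HK2, the other hexokinase among the members, stood at 81.3, 48.7, 49.1 and 41.1 CPM in DDR1 replicates 1 to 4, against 79.2, 37.0, 57.3 and 18.9 CPM in control replicates 1 to 4. The first replicate was the highest in both groups, the reverse of HK1, for which it was the lowest in both, though equal numbers do not mark a pair. The mean log2 ratio of HK1 to HK2 was 2.16 ± 0.71 in DDR1 libraries and 2.03 ± 1.03 in control libraries (SD, n = 4 each; exact two-sided permutation p = 0.771, adjusted over the 8 pairs 1).

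ALDOA, the aldolase that splits fructose bisphosphate (chromosome 16, 30064164 to 30070457, plus strand), had the largest log2 fold change of the enzymes. It stood at 609, 575, 665 and 973 CPM in DDR1 replicates 1 to 4, against 638, 426, 527 and 393 CPM in control replicates 1 to 4. Only control replicate 1 reached the DDR1 levels, and DDR1 replicate 4 stood above the rest. The mean was 706 ± 182 CPM in DDR1 libraries and 496 ± 111 CPM in control libraries (SD, n = 4 each), with a log2 fold change of 0.51 ± 0.23 (SE; unadjusted p = 0.0543 by edgeR). ALDOC, the aldolase best known from brain, had a log2 fold change of 0.46, and the ALDOA to ALDOC ratio differed between the groups by -0.003 on the log2 scale, with an exact permutation p of 1.

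GAPDH, the dehydrogenase of the middle of the pathway and a common reference gene, had the highest level per kilobase of exon of the 30 members. It stood at 2536, 2489, 3542 and 3140 CPM in DDR1 replicates 1 to 4, against 4140, 1950, 1845 and 2384 CPM in control replicates 1 to 4. Controls held both the highest and the lowest library, and the log2 fold change of 0.18 ± 0.29 (SE) was within its error. The 62 annotated GAPDH pseudogenes held only 0.448% as many counts as the gene. PKM, pyruvate kinase, stood at 1020, 2164, 2027 and 1961 CPM in DDR1 replicates 1 to 4, against 1890, 1900, 1077 and 1332 CPM in control replicates 1 to 4. The library labelled DDR1 replicate 1 was the lowest of all 8 for PKM. LDHA, which reduces pyruvate to lactate, stood at 1036, 976, 1514 and 1133 CPM in DDR1 libraries, against 1132, 1196, 656 and 749 CPM in control libraries, with a log2 fold change of 0.32.

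The other enzymes followed the pathway with small differences. Log2 fold changes were 0.25 for GPI, the isomerase of glucose 6-phosphate, 0.48 for PFKP, the platelet type of phosphofructokinase, and -0.05 for TPI1, the triose phosphate isomerase. PGK1, which makes the first ATP of the pathway, had 0.25 and PGAM1, the phosphoglycerate mutase, 0.09. ENO1 and ENO2, the enolases, had 0.15 and 0.11. PFKP was led by a single library, with 156 CPM in DDR1 replicate 4 and 58.9 to 91.3 CPM in the other DDR1 libraries, against 57.6 to 81.0 CPM in control libraries.

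The 14 enzymes together took 0.992%, 0.953%, 0.998% and 1.08% of the expected counts in DDR1 replicates 1 to 4, against 1.18%, 0.855%, 0.692% and 0.734% in control replicates 1 to 4. The DDR1 libraries lay close together and inside the control range. The mean share was 1.005% ± 0.0519 in DDR1 libraries and 0.865% ± 0.221 in control libraries (SD, n = 4 each), and the difference of 0.139 percentage points gave p = 0.257 in an exact two-sided permutation test.

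By level per kilobase of exon, averaged over the 8 libraries, the order began with GAPDH at 924 CPM per kilobase, ENO1 at 316, PKM at 195, LDHA at 169 and ALDOA at 153. TPI1 followed at 146, PGAM1 at 105 and PGK1 at 77.1 CPM per kilobase. GAPDH exceeded ENO1 and ENO1 exceeded PKM in all 8 libraries, but PKM exceeded LDHA in 6, LDHA exceeded ALDOA in 6 and ALDOA exceeded TPI1 in 4, so those neighbours were not separated. NDRG1, at 42.4, was the first hypoxia target in the order, level with HK1 at 33, which it exceeded in 4 libraries. Near the end stood CA12 at 3.09, EGLN3 at 2.78, SLC2A3 at 1.42 and CA9 at 0.781 CPM per kilobase.

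The glucose transporters that begin the pathway differed from each other. SLC2A1, the ubiquitous transporter GLUT1, stood at 157, 147, 116 and 169 CPM in DDR1 replicates 1 to 4, against 194, 75.3, 169 and 98.3 CPM in control replicates 1 to 4. The DDR1 libraries lay inside the control range, with a log2 fold change of 0.13 ± 0.29 (SE). SLC2A3, the high-affinity transporter GLUT3, stood at 3.54, 2.47, 13.0 and 0.200 CPM in DDR1 replicates 1 to 4, against 31.6, 1.92, 14.5 and 2.82 CPM in control replicates 1 to 4. Both groups ran from near 0 to over 10 CPM, and the log2 fold change of -1.40 ± 1.09 (SE; unadjusted p = 0.226 by edgeR) had the largest error of any member. Counts of 3 SLC2A3 pseudogenes came to 56.5% of those of the gene over all libraries together. Per library they came to 148%, 132%, 27.4% and 2129% in DDR1 replicates 1 to 4. In control replicates 1 to 4 they came to 18.3%, 166%, 38.2% and 245%. The level and fold change of SLC2A3 are therefore uncertain.

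The regulators of the pathway also overlapped. PFKFB3, which makes the fructose 2,6-bisphosphate that speeds phosphofructokinase, stood at 27.1, 19.4, 27.6 and 28.9 CPM in DDR1 replicates 1 to 4, against 26.3, 15.1, 25.8 and 25.6 CPM in control replicates 1 to 4. One library in each group, replicate 2, stood below the rest. PFKFB4, its paralog, stood at 13.1, 28.8, 43.9 and 38.2 CPM in DDR1 libraries, against 48.7, 23.2, 33.7 and 42.7 CPM in control libraries, with a log2 fold change of -0.26 ± 0.36 (SE). PDK1, a mitochondrial kinase that inhibits pyruvate dehydrogenase, had a log2 fold change of 0.15. Over the 8 pairs of related members, exact two-sided permutation p-values for the difference in log2 ratio ran from 0.229 to 1 before adjustment. The largest difference was that of SLC2A1 to SLC2A3, whose log2 ratio was 6.02 ± 2.64 in DDR1 libraries and 4.14 ± 1.28 in control libraries (SD, n = 4 each; difference 1.88). The SLC2A3 pseudogenes leave this ratio uncertain as well. A single pair at 0.0286, the smallest p that 4 against 4 libraries allow, would not pass 0.05 after adjustment over the 8 pairs, so these p-values do not show that the ratios were alike.

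The members varied more among control libraries than among DDR1 libraries. The SD of log2 CPM had a median over the 30 genes of 0.34 in DDR1 libraries and 0.50 in control libraries, and it was larger in controls for 21 of 30 members and 9 of the 11 hypoxia targets. Over all tested genes the medians were 0.36 and 0.37, and the control SD was larger for 50.7%. CA12, PFKP, PFKFB4, SLC2A3, HK1, GPI, ALDOA, PKM and BNIP3 were the 9 exceptions. Without control replicate 1 the control SD was larger for 16 of 30 members and for 52.0% of all tested genes. The median SD of the members was then 0.34 in DDR1 libraries and 0.42 in control libraries, and 7 of the 11 hypoxia targets had the larger SD in controls. The difference in spread was not given a test.

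**Figure D3:**
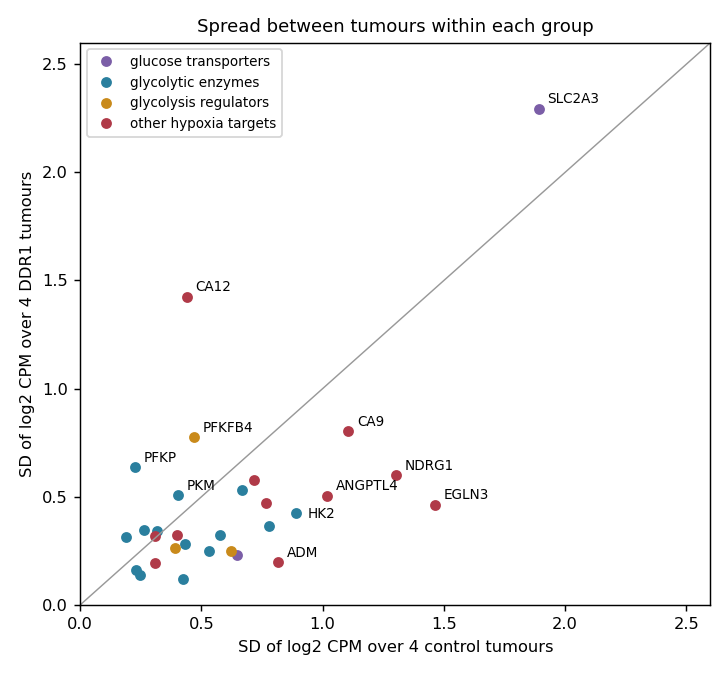
SD of log2 CPM over the 4 control libraries (horizontal) and the 4 DDR1 libraries (vertical) for each of the 30 genes, with the line of equal spread. 21 points lie below the line, where controls vary more, and CA12 and SLC2A3 are among the 9 above it.

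Control replicate 1 was the highest of the 4 controls for 25 of the 30 members, whereas it was for 19.6% of all tested genes. This held for 10 of 14 enzymes and 10 of 11 hypoxia targets, the exception being CA12, for which it was the lowest control, as it was for HK1 and PFKP among the enzymes. Relative to each gene's mean over the 8 libraries, the median deviation of the members on the log2 scale was 0.13, -0.05, 0.20 and 0.26 in DDR1 replicates 1 to 4, against 0.61, -0.45, -0.07 and -0.43 in control replicates 1 to 4. By this median, though not gene by gene, all 4 DDR1 libraries therefore lay between control replicates 3 and 1. For the 11 hypoxia targets the deviations were 0.03, -0.02, 0.20 and 0.18 in DDR1 libraries, against 0.83, -0.59, -0.18 and -0.67 in control libraries. For the 14 enzymes they were 0.15, -0.05, 0.05 and 0.31 in DDR1 libraries, against 0.20, -0.34, -0.14 and -0.34 in control libraries. DDR1 replicate 4 thus lay above control replicate 1 for the enzymes, and it was the highest of all 8 libraries for 6 of the 14, against 4 for control replicate 1. CA12 was highest in DDR1 replicates 4 and 2. Without control replicates 1 and 2, the lane 7 controls, the median log2 fold change of all members was 0.41, and without control replicates 3 and 4 it was 0.05, with 16 of 30 above 0.

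**Figure D4:**
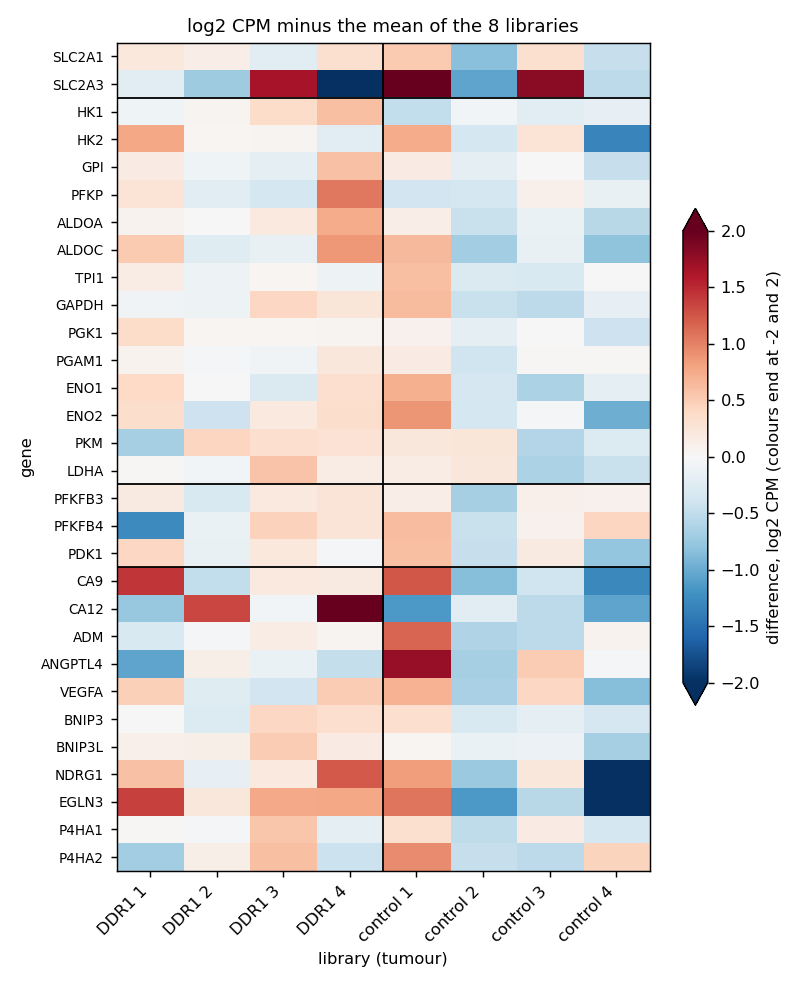
Heat map of log2 CPM minus the mean of the 8 libraries for each of the 30 genes, DDR1 libraries left of controls, genes grouped by role. Control replicate 1 is high across most genes and control replicates 2 and 4 are low across most. Control replicate 1 is the highest of all 8 libraries for 12 of the 30 genes, and DDR1 replicate 4 is for 9. For HK1, PFKP and CA12, control replicate 1 is instead the lowest of all 8 libraries.

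In the wider pathway the signs were close to evenly divided. Of 12 genes of the HIF machinery (the factors and their partners, the hydroxylases, VHL and the coregulators CITED2, EP300 and CREBBP), 11 were tested, and 6 had a log2 fold change above 0 and 5 below, with a median of 0.03. HIF1A, the inducible factor itself, stood at 214, 314, 403 and 283 CPM in DDR1 replicates 1 to 4, against 261, 318, 94.9 and 271 CPM in control replicates 1 to 4 (log2 fold change 0.36 ± 0.35, SE). EPAS1, the related factor HIF2A, had -0.21 ± 0.31 (SE). ARNT, their partner, had a log2 fold change of 0.22 and VHL, which targets them for destruction, -0.04. HIF activity is set mainly by protein stability, which RNA levels do not show. All 20 other HIF targets listed were tested, with 10 above 0 and 10 below and a median of 0.02. Of 25 other genes of glycolysis and pyruvate use, 18 were tested, with 10 above 0 and 8 below and a median of 0.0057. None of these 3 lists held a gene with an unadjusted p under 0.05.

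Of 13 other carbonic anhydrases, 5 were tested, with 4 above 0 and 1 below. CA13, a cytosolic carbonic anhydrase, had an unadjusted p under 0.05 in the opposite direction. It stood at 1.70, 2.63, 1.13 and 1.85 CPM in DDR1 replicates 1 to 4, against 2.71, 4.64, 4.43 and 1.98 CPM in control replicates 1 to 4, with a log2 fold change of -0.92 ± 0.37 (SE; unadjusted p = 0.0349 and adjusted p = 0.9998 by edgeR). The groups overlapped.

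Markers of tumour and host cells also differed between libraries. The 5 epithelial markers of T24 summed to 1095 to 2555 CPM in DDR1 libraries and 1267 to 1784 CPM in control libraries, the highest being DDR1 replicate 4. Among them KRT19, a keratin of simple epithelia, stood at 433, 264, 218 and 662 CPM in DDR1 replicates 1 to 4, against 283, 187, 235 and 109 CPM in control replicates 1 to 4. Its log2 fold change was 0.95 ± 0.39 (SE; unadjusted p = 0.0363 and adjusted p = 0.9998 by edgeR), and it was the only marker on these lists with an unadjusted p under 0.05. The 5 endothelial markers summed to 9.08, 46.6, 34.7 and 76.1 CPM in DDR1 replicates 1 to 4, against 11.1, 31.3, 8.65 and 55.9 CPM in control replicates 1 to 4, with KDR and TEK under 0.5 CPM in every library. Most of each sum came from CDH5 and PECAM1, as VWF reached at most 3.20 CPM. Within the DDR1 group the order of the sums is that of CA12, lowest in the library labelled DDR1 replicate 1 and highest in DDR1 replicate 4. The share of all tested genes with this order was not counted, and a link was not tested. CA12 stood at 7.24 CPM in control replicate 4, where the endothelial sum was the highest of the controls. The 6 fibroblast markers summed to 3.65 to 38.7 CPM in DDR1 libraries and 9.0 to 44.0 CPM in control libraries, with LUM and DCN under 0.5 CPM throughout. Leukocyte markers, 6 in all, summed to 23.1 to 49.2 CPM in DDR1 libraries and 16.0 to 39.3 CPM in control libraries. PTPRC was under 0.5 CPM in every library. Most of each leukocyte sum came from CD68 alone, which had 46.3 CPM in DDR1 replicate 4 and 37.0 CPM in control replicate 3. All 4 red cell markers were under 0.5 CPM. Of the 4 muscle markers, which summed to 0.364 to 6.0 CPM in DDR1 libraries and 0.646 to 38.0 CPM in control libraries, DES was under 0.5 CPM in every library. The sum of 38.0 CPM was that of control replicate 4, where MYH1 alone had 36.5 CPM. The part of these cells in the members' values was not tested, nor was that of mouse reads, whose removal is not described.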

How the data were processed

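Per the labels' protocols, tumour RNA was column-purified, selected on poly-T beads and sequenced as 150 bp paired ends. The submitters' processing notes name STAR 2.7.5, RSEM 1.3.1, Trim Galore 0.6.4 and FastQC 0.11.9, with build GRCh38. The deposited expected counts are estimated reads per gene, of which 26.5% of values above 0 were not whole, and they were rounded for the count tests. The authors also deposited TMM-normalized values on a log2 scale, which were used as they stand for one alternative (limma-trend). The sources used here give no annotation release, strand handling or removal of mouse reads.

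Identifiers were matched to GENCODE 29 (58039 of 58302, with 263 unmatched). Genes were kept by filterByExpr (minimum count 10), scaled by TMM and tested with edgeR 4.0.16 (limma 3.58.1, R 4.3.3), in a fit of all 8 libraries on group alone. A Benjamini-Hochberg adjusted p under 0.05 was called. A prior count of 2 went into log2 CPM. The biological coefficient of variation was 0.386. Another tested gene overlapped 17 members, 7 on their own strand and 11 on the opposite one, SLC2A1 on both. Single values were compared with exact permutation tests over libraries (scipy 1.17.1), and DESeq2 1.42.0 was an alternative. The test was tried on simulated data first.

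By rule, values in every library were given for CA12, CA9, the lowest p-values of each role and the highest level per kilobase. The rule also covered non-overlapping groups, HIF1A and other carbonic anhydrases with an unadjusted p under 0.05. EPAS1, ARNT and VHL were named by rule too, but are given without library values. Further genes were given in full after their values were seen. The members and gene lists were chosen with earlier results of these data known. Replicate numbers follow the order of the libraries and only name them.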

Additional observations from a re-analysis of the deposited data

Results flagged for a closer look

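Of 78 checks of a single library against the other 3 of its group, 6 found one standing apart by Dixon's gap ratio at its critical value, and chance alone gives about 5%. In the library labelled DDR1 replicate 1, PGK1 stood high at 544 CPM, where the other 3 DDR1 libraries had 432 to 437 CPM. In the same library PKM stood low at 1020 CPM. The log2 ratio of PFKFB3 to PFKFB4 stood high there too, at 1.05. PFKFB3 stood low in DDR1 replicate 2, at 19.4 CPM, and in control replicate 2, at 15.1 CPM. BNIP3L stood high in DDR1 replicate 3, at 157 CPM.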

How the results depend on the processing

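Of 20 alternatives, DESeq2 called 16 genes (0.0843%) and the others 0, and no member was called in any. The DDR1 gene had a log2 fold change of 1.05 to 1.79 with 1 library left out and 1.31 (unadjusted p = 0.0653 by edgeR) without the lane 7 controls. The median log2 fold change was 0.15 to 0.43 for the enzymes, 0.18 to 0.43 for the hypoxia targets and 0.08 to 0.42 for all members with 1 library left out. For the enzymes it was 0.53 without the lane 7 controls and 0.07 without the others. The share of counts of the enzymes differed by 0.0815 to 0.244 percentage points with 1 library left out. The sign held in every alternative for 14 of the 30 members, CA12 (1.14 to 2.26 with 1 library left out), HK1 (0.36 to 0.58), ALDOA (0.32 to 0.67) and BNIP3L (0.31 to 0.53) among them. With the libraries of a title prefix summed, CA12 had 1.39. NDRG1 ran from 0.32 to 1.17 and SLC2A3 from -2.59 to -0.38.

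The sign turned, and the cause was not tested, for TPI1 with limma-trend (0.0061) and without the lane 7 controls (0.18), and for ADM without those controls (0.21). Without control replicates 3 and 4 it turned for HK2 (-0.074), GAPDH (-0.057), ENO1 (-0.14), ENO2 (-0.25), PKM (-0.079), PDK1 (-0.033), CA9 (-0.016) and VEGFA (-0.026). It turned for PKM with prefixes summed (-0.10) and for BNIP3 with pseudogenes added (-0.0038). With 1 library left out, values crossing 0 ran over -0.061 to 0.39 for SLC2A1, -0.062 to 0.56 for HK2, -0.15 to 0.20 for TPI1, -0.015 to 0.18 for PGAM1, -0.0057 to 0.51 for ENO1, -0.11 to 0.56 for ENO2, -0.0087 to 0.27 for PFKFB3 and -0.028 to 0.45 for PDK1. The like ranges were -0.048 to 1.43 for CA9, -0.43 to 0.31 for ADM, -0.10 to 0.41 for VEGFA, -0.0026 to 0.34 for P4HA1 and -0.53 to 0.11 for P4HA2. Of the ratios, ALDOA to ALDOC ran from -0.18 to 0.15, ENO1 to ENO2 from -0.22 to 0.25 and HK1 to HK2 from -0.26 to 0.54.

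No paired analysis was possible because the replicate numbers only follow the order of the libraries. Under the filter of 5 CPM, SLC2A3 and CA9 were not tested. Depth limits the genes of a few CPM, CA9 and SLC2A3 first.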
